A study of Homo sapiens with 24 samples.

Results

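DHRS2 and 9 of its paralogs (DHRS1, DHRS3, DHRS4, DHRS7, DHRS7B, DHRS9, DHRS11, DHRS12 and DHRS13) are the 10 genes described here, of 37416 genes counted in every library. DHRS2 was chosen by a measured value, its rise in HCC1806 cells when ADAR1 was lowered, so its values in that line are given as a description with no test. The 9 paralogs were taken by gene-family name and matched by Ensembl identifier, not by their values. The cells were the breast cancer lines MDAMB468, MDAMB231, HCC1806 and BT549, 4 in all, which the series calls triple-negative (TNBC), and the measurement was RNA-seq. Each line carried a lentiviral short hairpin RNA, either shADAR1, which targets the RNA-editing enzyme ADAR1, or the non-targeting control shNT. The 8 groups had 3 libraries each, labelled as biological replicates. All groups, controls included, went through viral infection for 24 h with protamine sulfate and puromycin selection at 2 µg/ml for 72 h. Libraries were built from ribosome-depleted total RNA. The hairpin sequences, and how many hairpins were used per target, are not given in the sources used here.

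Short-chain dehydrogenases/reductases (SDRs) are enzymes with a nucleotide-binding fold that use NAD(H) or NADP(H) to interconvert alcohols and carbonyls on steroids, retinoids, lipids and reactive metabolites. DHRS2, also known as Hep27, reduces dicarbonyl compounds, is found in mitochondria and the nucleus, and has been reported to bind the ubiquitin ligase MDM2. DHRS4 is a peroxisomal carbonyl and retinal reductase and lies near DHRS2 on chromosome 14.

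Total counts per library ran from 10370645 to 97218217. ADAR, the targeted gene, was left at 21.8% of the shNT level in MDAMB231, 26.1% in BT549, 33.1% in HCC1806 and 37.1% in MDAMB468. Of 8 breast epithelial markers, EPCAM, KRT14, KRT17 and KRT19 were at 0 counts in all 3 BT549 shNT libraries, whereas the mesenchymal marker VIM stood at 2309 CPM there. CPM is the read count scaled to a common library total of 1e+06, here after normalisation by the trimmed mean of M-values (TMM). Of the receptor genes looked for in TNBC lines, ESR1 stood at 19.1 CPM in HCC1806 shNT, 6.85 in MDAMB468 and below 0.5 in the other 2, ERBB2 at 75.95 to 100.1 CPM in the 4 lines, and PGR at 0.74 CPM or less. None of the 8 epithelial markers was called in any line by edgeR's quasi-likelihood test. With an unadjusted edgeR p below 0.05 there were 0 in HCC1806, 3 in BT549, 0 in MDAMB468 and 1 in MDAMB231. The shares of all genes were 4.35%, 6.42%, 3.76% and 11.7% in that order. DESeq2 called 1, KRT17, higher in BT549, where it called 1.31% of all genes. Adding a replicate block to the edgeR model called 0 in HCC1806 (2.1% of all genes) and 0 in MDAMB468 (1.66%). The block called 2 in BT549 (5.14%) and 3 in MDAMB231 (11.4%), all higher. In BT549 these were KRT17 and KRT19, at 0.22 and 0.05 CPM under shADAR1 against 0, on at most 38 and 8 counts per library. In MDAMB231 they were KRT8 (530 against 467 CPM), KRT18 (264 against 223 CPM) and CDH1 (0.24 against 0.07 CPM, at most 16 counts). Of 4 mesenchymal markers edgeR and DESeq2 each called CDH2 alone, higher in MDAMB231 at 0.79 against 0.25 CPM (log2 fold change 1.39, edgeR adjusted p = 0.0386). In that line edgeR called 2.01% of all genes and DESeq2 3.68%. The block called VIM higher in HCC1806 (12.1 against 7.96 CPM), MDAMB231 and MDAMB468, FN1 higher in MDAMB468, and CDH2 higher and ZEB1 lower in MDAMB231. The part of these markers in the results below was not tested.

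The DHRS2 gene (ENSG00000100867) spans chr14:23630115-23645639 on the plus strand of GRCh38, the build whose GENCODE 29 spans matched the listed spans of all 10 genes. The 250 bases before its listed start are shown because DHRS2 is the member that moved in HCC1806 and because its sequence composition differs from that of most promoter windows. The sequence is from RefSeq, GRCh38.p14, chr14:23629865-23630114, plus strand, with the TATA box letters TATAAA in capitals.
DHRS2 promoter: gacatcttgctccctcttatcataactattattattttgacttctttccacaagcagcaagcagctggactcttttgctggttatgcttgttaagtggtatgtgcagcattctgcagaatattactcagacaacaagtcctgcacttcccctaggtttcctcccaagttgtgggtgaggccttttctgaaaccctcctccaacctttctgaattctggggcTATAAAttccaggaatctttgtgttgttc
The window held 0 CpG dinucleotides and had a GC content of 43.2%. The median over 35116 promoter windows of the same length was 11 CpG dinucleotides and 58.0% GC, and 6.06% of windows had as few CpG. TATAAA, searched on both strands, occurred once in the DHRS2 window and in 10.7% of all windows. The letters CCAAT (in 32.0% of windows), GGGCGG (42.6%) and AACNG, a core of MYB sites (70.6%), were not among its letters. DHRS4, the nearest relative, had a window of 70.8% GC with 19 CpG dinucleotides, 4 GGGCGG matches and no TATAAA. DHRS9 had 4 RefSeq windows with 0, 2, 1 and 0 CpG dinucleotides, and TATAAA in 3 of them. Over the 17 windows of the other members the CpG count ran from 0 to 34. A window was found for 9 of the 10 genes, all but DHRS7. These matches describe letters only.

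In HCC1806, DHRS2 was higher in every shADAR1 library than in every shNT library. Its TMM-scaled levels were 87.9, 36.7 and 54.5 CPM in shADAR1 replicates 1, 2 and 3, from 3822, 1810 and 4815 counts. Under shNT they were 10.2, 9.07 and 4.11 CPM, from 232, 436 and 213 counts. The group means were 59.7 CPM ± 26.0 (SD, n = 3) and 7.80 CPM ± 3.24 (SD, n = 3). The ratio between same-numbered libraries was 8.62, 4.05 and 13.2, so the lowest and highest differed more than 3 times, and each arm varied widely. The fitted log2 fold change was 2.95 (SE 0.29), a 7.74-fold difference. Leaving out each library in turn moved it between 2.56 and 3.21. In bulk RNA, more cells with the transcript and more transcript per cell cannot be told apart.

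**Figure D1:**
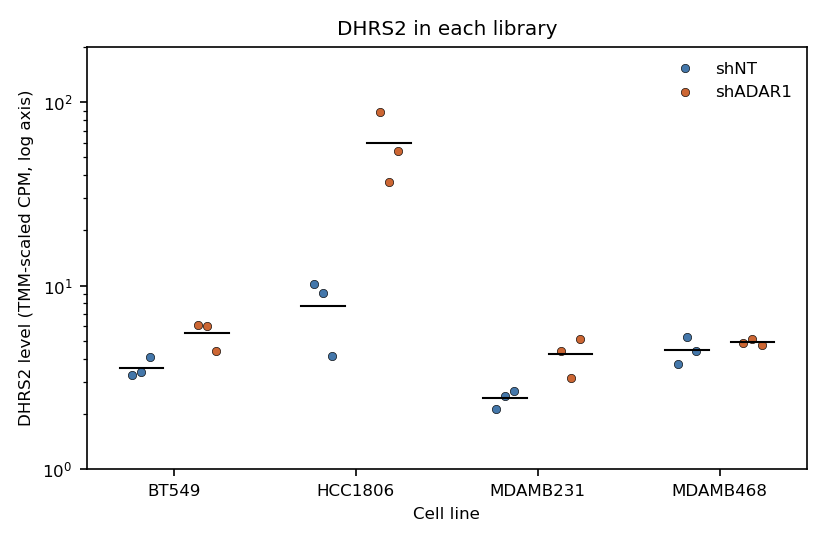
DHRS2 level in each of the 24 libraries (TMM-scaled CPM, log axis) by cell line, with shNT in blue and shADAR1 in orange; black bars are means of 3 libraries. The 3 HCC1806 shADAR1 libraries lie between 36.7 and 87.9 CPM, while all 18 libraries of the other lines lie between 2.12 and 6.12 CPM.

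Outside HCC1806 the DHRS2 differences were far smaller. In BT549 the shADAR1 libraries had 6.12, 5.99 and 4.42 CPM and the shNT libraries 3.25, 3.39 and 4.07 CPM, so the arms did not overlap. In MDAMB231 the shADAR1 libraries had 4.41, 3.13 and 5.13 CPM and the shNT libraries 2.12, 2.49 and 2.67 CPM, again without overlap. In MDAMB468 the arms overlapped, at 4.88, 5.14 and 4.77 CPM in shADAR1 against 3.75, 5.27 and 4.40 CPM in shNT. For reference, all 3 shADAR1 libraries lay above all 3 shNT libraries in 8.24% of the 21352 genes tested in BT549, 7.19% in MDAMB231, 6.69% in MDAMB468 and 4.38% in HCC1806.

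None of these 3 lines gave a DHRS2 difference that passed the threshold of 0.05 on the p-value adjusted over all genes (edgeR quasi-likelihood test, Benjamini-Hochberg). The log2 fold change was 0.63 in BT549 (SE 0.29, 95% interval 0.04 to 1.22, adjusted p = 0.72, where 0.473% of genes were called). It was 0.76 in MDAMB231 (SE 0.31, interval 0.11 to 1.41, adjusted p = 0.311, where 2.01% were called). In MDAMB468 it was 0.13 (SE 0.29, interval -0.47 to 0.73, adjusted p = 1, where 0.0375% were called). The mean over the 3 lines, part of a 4-line mean that was known when the gene was chosen, was 0.51 (SE 0.17, interval 0.15 to 0.86), a 1.42-fold difference, with adjusted p = 0.143 by edgeR, where 2.89% of genes were called. With the replicate number as a block that mean was 0.49 and passed (edgeR adjusted p = 0.0215), and with DESeq2 it was 0.51 (adjusted p = 0.0497). A joint edgeR test of whether the 3 lines differed in their DHRS2 response gave an adjusted p of 1, where 0.00468% of genes were called.

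No paralog showed a comparable rise in HCC1806. By edgeR, 0 of 9 paralogs passed the adjusted threshold there, where 0.0468% of all genes did, and 0 of 9 had an unadjusted p below 0.05, where 4.35% of genes did. DESeq2 called 0 as well. Log2 fold changes ran from -0.12 (DHRS1) to 0.12 (DHRS12), and 5 of 9 were above 0. The median was 0.02, against 0.004 over all genes tested. In no paralog were the HCC1806 arms apart. The highest upper 95% limit among the 9 was a log2 fold change of 0.61, a 1.53-fold rise, for DHRS12, with DHRS9 close to it. Each interval is for 1 gene alone and does not give the size of rise that could go uncalled after adjustment.

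**Figure D2:**
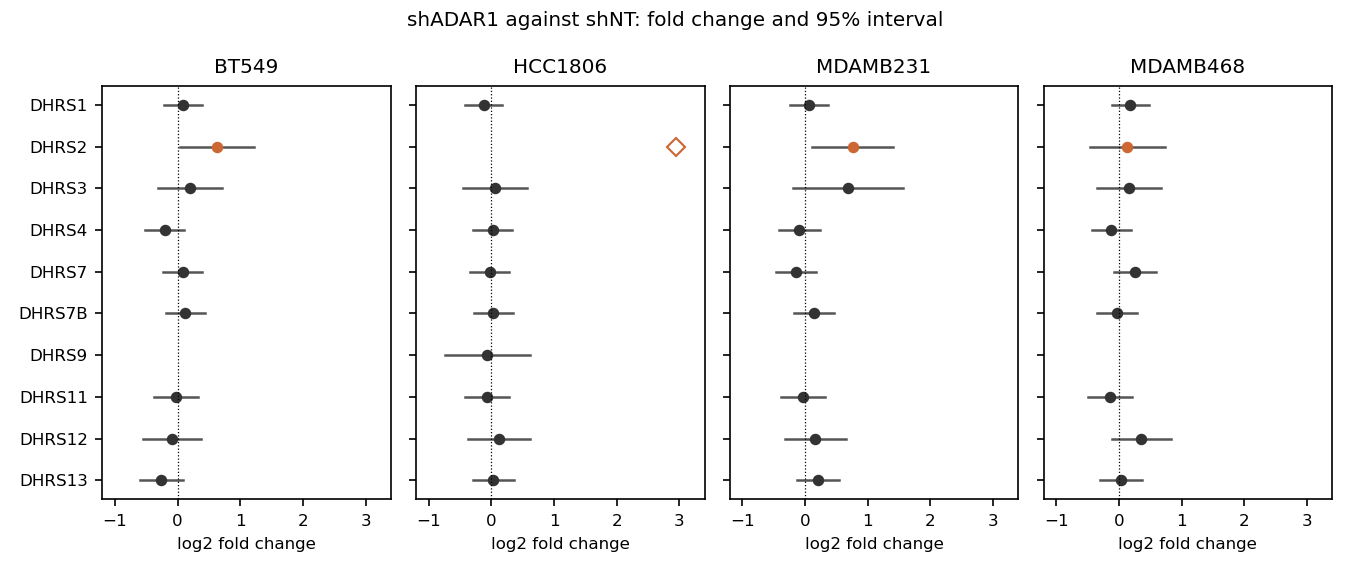
Log2 fold change of shADAR1 against shNT for each gene (points) with its 95% interval (lines) in the 4 cell lines; DHRS2 is orange. The open diamond, DHRS2 in HCC1806 at 2.95, is drawn without an interval because that rise chose the gene, and DHRS9 is left out of the other lines because its counts there were near 0. In HCC1806 the 9 paralogs lie between -0.12 and 0.12.

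DHRS4 is the closest relative of DHRS2 among the 9 by coding sequence: the 903-base DHRS2 and 837-base DHRS4 coding sequences were identical at 67.5% of aligned positions, against 42.4% to 49.5% for DHRS2 and the other 8. The longest identical run shared by DHRS2 and DHRS4 was 22 bases. Of the distinct 50-base words in DHRS2 transcripts, 0.114% occurred in any other gene, so few such words match a second gene. DHRS4 is more uncertain, since 48.0% of its 50-base words occurred in other genes, chiefly its copy DHRS4L2 (35.4%). DHRS4 (ENSG00000157326, chr14:23953586-23969279, plus strand) begins 307947 bases after DHRS2 ends. Its HCC1806 levels were 7.89, 8.01 and 7.30 CPM under shADAR1 and 6.60, 7.66 and 8.50 CPM under shNT, with the shADAR1 values inside the control range. The log2 fold change was 0.02 (interval -0.29 to 0.34), and that of DHRS4L2 was -0.03 (SE 0.19).

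Among the retinoid enzymes, DHRS3 (ENSG00000162496, chr1:12567910-12617731, minus strand) reduces retinal to retinol. It stood at 55.0, 42.9 and 84.5 CPM in HCC1806 shADAR1 and at 52.9, 47.4 and 75.2 CPM in shNT. Replicate 3 was the highest and replicate 2 the lowest in both arms, and the arms overlapped almost entirely (log2 fold change 0.06, interval -0.45 to 0.56). DHRS9 (ENSG00000073737, chr2:169064789-169096167, plus strand), a retinol and hydroxysteroid dehydrogenase, stood at 16.2, 20.4 and 15.2 CPM under shADAR1 and 13.98, 22.3 and 17.6 CPM under shNT. Its log2 fold change in HCC1806 was -0.06, with the interval -0.74 to 0.61.

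The steroid and carbonyl reductases also had log2 fold changes near 0 in HCC1806. DHRS1 (ENSG00000157379, chr14:24290598-24299833, minus strand) is an endoplasmic reticulum enzyme of steroid and xenobiotic reduction that begins 644959 bases after DHRS2 ends. It had a mean of 12.6 CPM ± 0.43 (SD, n = 3) against 13.7 CPM ± 1.30 (SD, n = 3), and a log2 fold change of -0.12 (interval -0.42 to 0.18). DHRS7 (ENSG00000100612, chr14:60144120-60169856, minus strand), another endoplasmic reticulum reductase, was among the most abundant members at 39.7 CPM ± 5.14 against 40.5 CPM ± 4.14 (SD, n = 3), with a log2 fold change of -0.03. Its exons overlap PCNX4 on the opposite strand over 894 bases, 27.5% of its length, so without strand information their reads cannot be told apart. DHRS11 (ENSG00000278535, chr17:36591798-36600806, plus strand), a ketosteroid reductase, gave -0.07 (interval -0.43 to 0.28).

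DHRS7B (ENSG00000109016, chr17:21123364-21193265, plus strand) is a peroxisomal reductase of ether lipid synthesis. It had 15.2 CPM ± 1.99 against 14.8 CPM ± 2.88 (SD, n = 3) in HCC1806, and a log2 fold change of 0.03. The other members, DHRS12 (ENSG00000102796, chr13:51767993-51804157, minus strand) and DHRS13 (ENSG00000167536, chr17:28897781-28903071, minus strand), have less settled substrates. DHRS12 was the least abundant member in HCC1806 at 2.10 CPM ± 0.27 against 1.93 CPM ± 0.04 (SD, n = 3), with a log2 fold change of 0.12 (interval -0.37 to 0.61). DHRS13 gave 0.03 (interval -0.30 to 0.36). Of their 50-base words, 17.8% and 37.7% occurred in other genes, so the counts of both are uncertain.

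**Figure D3:**
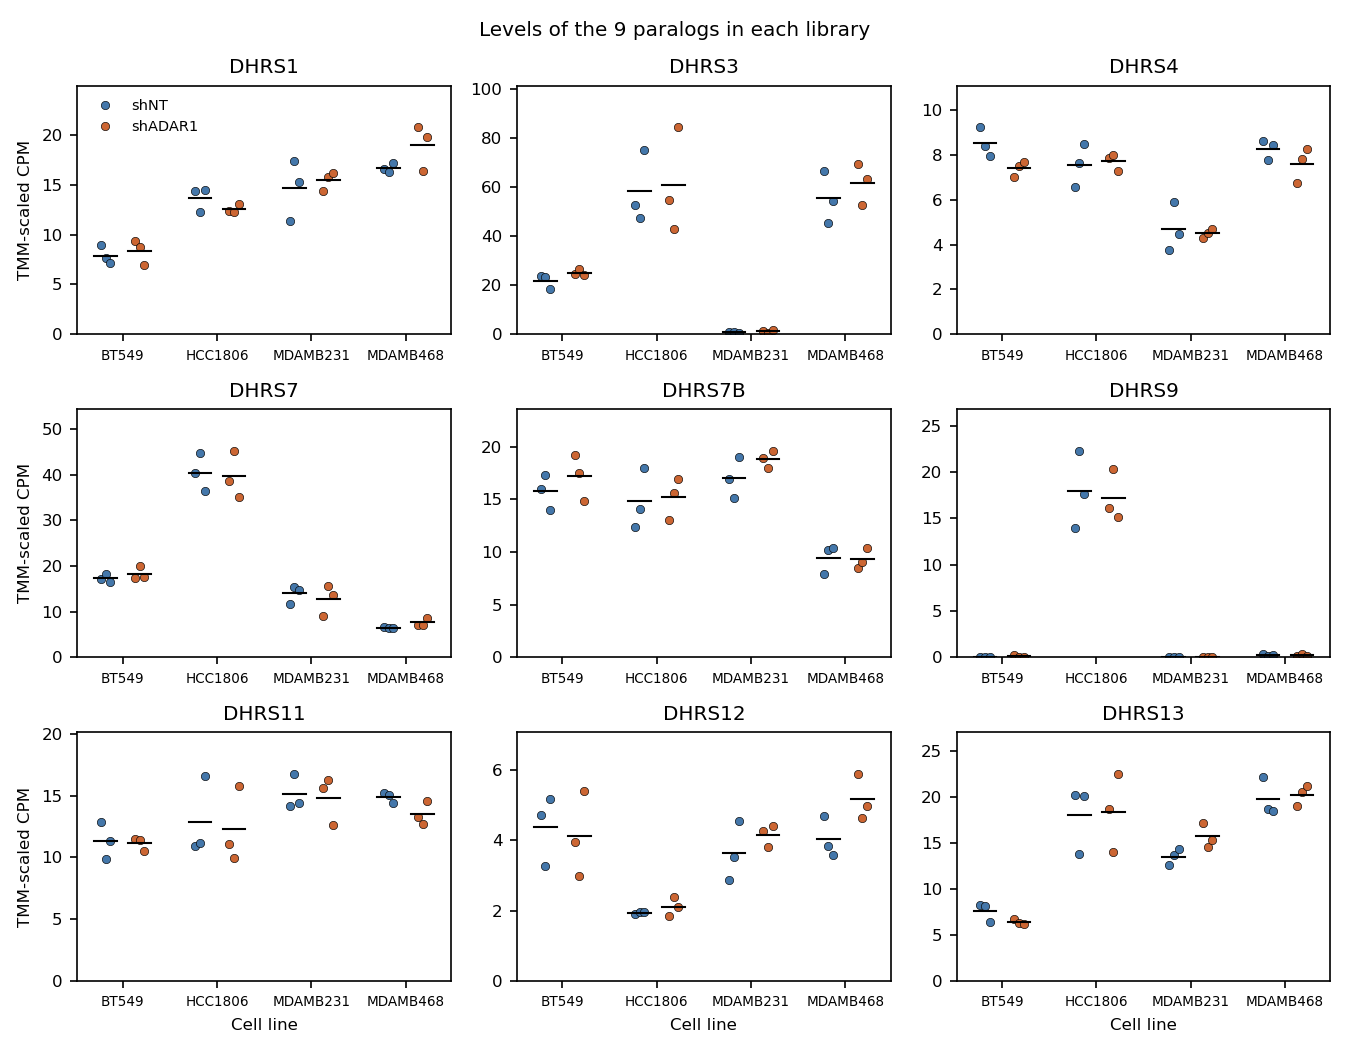
TMM-scaled CPM of the 9 paralogs in each library, 1 panel per gene with its own linear axis from 0, by cell line; shNT is blue, shADAR1 orange and black bars are means of 3 libraries. The lines differ more than the arms do: DHRS9 lies at 13.98 to 22.3 CPM in HCC1806 and below 0.4 CPM elsewhere, and DHRS3 lies below 2 CPM in MDAMB231.

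The effect in HCC1806 was also set against the mean effect in the other 3 lines. By edgeR, 0 of 9 paralogs differed at the adjusted threshold, where 0.0141% of genes (3 genes) did, 0 of 9 had an unadjusted p below 0.05, where 4.7% did, and DESeq2 called 0. For DHRS4 the difference was 0.16 on the log2 scale, with the interval -0.20 to 0.52. For DHRS2 the same difference, which its choice fixes, was 2.44 (SE 0.33).

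In the other lines the paralogs also stayed below the threshold. The edgeR test called 0 of 9 in BT549, MDAMB231 and MDAMB468, as did DESeq2. Below an unadjusted p of 0.05 were 1 of 9 in BT549 (DHRS9; 6.42% of all genes), 0 in MDAMB231 (11.7%) and 0 in MDAMB468 (3.76%). Apart from DHRS9, the log2 fold changes ran from -0.26 (DHRS13) to 0.20 (DHRS3) in BT549. They ran from -0.14 (DHRS7) to 0.69 (DHRS3) in MDAMB231 and from -0.14 (DHRS11) to 0.36 (DHRS12) in MDAMB468. The DHRS3 value in MDAMB231 rests on 121 counts in shADAR1 against 67 in shNT. Its levels there, 1.15, 0.50 and 1.66 CPM against 0.74, 0.85 and 0.46 CPM, overlapped between the arms (edgeR adjusted p = 0.596).

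The arms were apart in 5 of the 36 combinations of paralog and line. DHRS3 was higher in every shADAR1 library of BT549, at 24.5, 26.8 and 24.1 CPM against 23.9, 23.4 and 18.4 CPM. DHRS4 was lower there, at 7.04, 7.50 and 7.69 CPM against 9.25, 8.40 and 7.98 CPM. DHRS9 was higher in BT549, DHRS13 in MDAMB231 (14.6 to 17.2 against 12.6 to 14.3 CPM) and DHRS7 in MDAMB468 (7.17 to 8.71 against 6.36 to 6.59 CPM). Arms apart in the lower direction, as for DHRS4, were found in 6.43% of all genes in BT549, and the shares for the higher direction are those given above for DHRS2. None of the 5 passed the adjusted threshold (edgeR).

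DHRS9 in BT549 was close to the detection limit. It had 14, 8 and 4 counts in the shADAR1 libraries and 2, 0 and 0 in the shNT libraries, 26 against 2 in all. Scaled for depth, the ratio was 10.2, with an exact 95% interval of 2.56 to 88.9 that covers counting error only. The edgeR adjusted p was 0.225, and with the replicate number as a block it was 0.0221, the only call of a paralog under any alternative. The block called 5.14% of all genes in BT549. In MDAMB231 DHRS9 had 0 counts in all shADAR1 libraries and 0, 4 and 0 in shNT, and in MDAMB468 it had 5, 18 and 8 against 10, 8 and 16. HCC1806 was thus the line with DHRS9 expression well above the limit of counting. Its pooled shADAR1 level was at least 649-fold higher than that of MDAMB231 shADAR1, whose 0 counts allow up to 0.026 CPM (3 counts over the group).

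Levels of most paralogs differed between the lines. Under shNT, 8 of the 9 paralogs differed among the 4 lines (edgeR joint test, adjusted threshold), where 85.9% of all genes did; the remaining paralog was DHRS11 (adjusted p = 0.0876), whose highest and lowest line means differed 1.33-fold. DHRS11 passed with DESeq2 (adjusted p = 0.0391), with upper-quartile scaling (0.0311) and with a filter of 10 counts in each library (0.0261). It also passed without HCC1806 shADAR1 replicate 3 (0.0423) or shNT replicate 3 (0.0177), and 2 of its 6 pairs of lines passed, MDAMB231 and MDAMB468 each above BT549 (adjusted p = 0.0416 and 0.049, edgeR). DHRS3 had the widest range outside DHRS9: 58.5 CPM ± 14.7 in HCC1806, 55.5 CPM ± 10.8 in MDAMB468, 21.9 CPM ± 3.05 in BT549 and 0.68 CPM ± 0.20 in MDAMB231 (SD, n = 3). HCC1806 and MDAMB468 did not differ beyond their spread (edgeR adjusted p = 0.804), and MDAMB231 minus HCC1806 was -6.45 on the log2 scale (SE 0.36, edgeR adjusted p = 3.92e-13). DHRS7 levels had the order HCC1806, BT549, MDAMB231 and MDAMB468, a 6.26-fold range, where the BT549 and MDAMB231 libraries did not overlap but missed the threshold (edgeR adjusted p = 0.109).

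Pairs of lines under shNT differed in most genes, with 63.5% called by edgeR between HCC1806 and BT549, 56.5% between MDAMB231 and BT549, 61% between MDAMB468 and BT549, 59% between MDAMB231 and HCC1806, 62.9% between MDAMB468 and HCC1806 and 61.8% between MDAMB468 and MDAMB231. The remaining paralogs had narrower ranges. DHRS13 spanned 2.60-fold (highest MDAMB468, lowest BT549) and DHRS12 2.27-fold (highest BT549, lowest HCC1806). DHRS1 spanned 2.12-fold, with BT549 below the other 3 lines. Among those 3 no pair passed the threshold, although the HCC1806 libraries (12.2 to 14.5 CPM) lay below those of MDAMB468 (16.3 to 17.2 CPM; edgeR adjusted p = 0.0926). DHRS4 spanned 1.81-fold, with MDAMB231 below the other 3 lines, whose libraries overlapped with no pair past the threshold. DHRS7B spanned 1.79-fold, with MDAMB468 below the other 3 lines, whose libraries overlapped likewise.

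DHRS2 under shNT had means of 7.80 CPM ± 3.24 in HCC1806, 4.47 CPM ± 0.76 in MDAMB468, 3.57 CPM ± 0.44 in BT549 and 2.43 CPM ± 0.28 in MDAMB231 (SD, n = 3). The HCC1806 libraries are the controls of the rise that chose the gene, so only the other 3 lines were compared. MDAMB468 was above MDAMB231 by 0.86 on the log2 scale (SE 0.31, edgeR adjusted p = 0.0202). MDAMB468 and BT549 overlapped (0.34, adjusted p = 0.33). MDAMB231 lay below BT549 in every library, but that difference did not pass (-0.52, adjusted p = 0.162; both edgeR).

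Levels of different genes were compared per length, in the deposited length-scaled CPM (RPKM, CPM per kilobase). DHRS2 has a long listed length of 7556 bases and ranked 9th of the 10 members under shNT in BT549 (0.46 RPKM), HCC1806 (0.97) and MDAMB468 (0.65), and 8th in MDAMB231 (0.32). Under shADAR1 it kept its rank in those other lines and was 3rd in HCC1806, at 7.57 RPKM ± 3.30 (SD, n = 3), behind DHRS3 (19.3) and DHRS7 (11.7). DHRS3 ranked first under shNT in BT549 (6.91 RPKM), HCC1806 (18.3) and MDAMB468 (20.0), whereas DHRS13 ranked first in MDAMB231 (4.61).

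**Figure D4:**
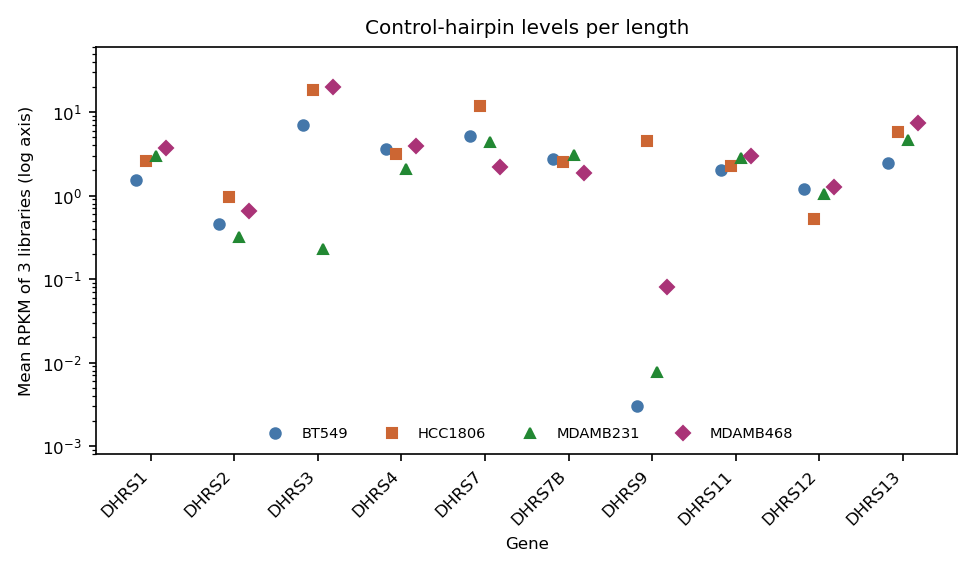
Mean RPKM of 3 shNT libraries for each of the 10 genes (log axis), with 1 symbol per cell line. DHRS2 lies between 0.32 and 0.97 RPKM, DHRS3 drops to 0.23 in MDAMB231, and DHRS9 is above 1 RPKM in HCC1806 alone (4.52).

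No tested neighbour of DHRS2 on chromosome 14 showed a rise like it in HCC1806. Within 250000 bases the files list 11 other genes, of which 5 passed the filter on low counts, all before DHRS2. By edgeR 0 of 5 were called in any line; an unadjusted p below 0.05 was found for 0 in HCC1806 and MDAMB468, 1 in BT549 (6.42% of all genes) and 3 in MDAMB231 (11.7%). DESeq2 called 1, THTPA, lower in MDAMB231, where it called 3.68% of all genes. The 6 libraries of BT549 alone called THTPA lower in BT549, where that fit called 1.34% of the genes it tested. With the replicate block, which called 11.4% of all genes in MDAMB231, 5.14% in BT549, 2.1% in HCC1806 and 1.66% in MDAMB468, 0 neighbours were called in HCC1806, against THTPA in BT549 and THTPA and ZFHX2 in MDAMB231, all lower. The nearest tested gene, JPH4 (51315 bases away), had a log2 fold change of -0.42 in HCC1806 (SE 0.76) on at most 69 counts. The next, AP1G2, a subunit of a vesicle adaptor complex (62045 bases away), had -0.03 (SE 0.11). In HCC1806 the 5 ran from -0.42 to 0.25. On the far side 1 gene is listed, RN7SKP205, and it had at most 2 counts.

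The wider SDR family was examined with a list of 63 further genes, of which 57 were tested. In HCC1806 edgeR called 0 of 57, where 0.0468% of all genes were called, and DESeq2 called 0 (0.187% of all genes). With the replicate block 1 was called higher (HSD11B1) and 1 lower (GMDS). In BT549 edgeR called 1 higher and 0 lower, where 0.473% of all genes were called. There DESeq2 called 1 higher and 2 lower (1.31% of all genes), and the block 2 higher and 5 lower. In MDAMB231 edgeR called 1 higher and 4 lower, where 2.01% of all genes were called. There DESeq2 called 2 higher and 6 lower (3.68%), and the block 3 higher and 8 lower. The line's own 6 libraries gave 1 higher and 0 lower there (0.7% of the genes tested in that fit), so all 4 lower calls were lost. In MDAMB468 edgeR called 0, where 0.0375% of all genes were called, DESeq2 called 0 (0.197%), and the block 2 higher and 1 lower. Unadjusted edgeR p-values were below 0.05 for 3 of 57 in HCC1806, 7 in BT549, 11 in MDAMB231 and 4 in MDAMB468. The shares of all genes were 4.35%, 6.42%, 11.7% and 3.76% in that order. The shares of all genes called by the block are those given for the neighbours. The list's median log2 fold change was -0.03 in HCC1806, beside 0.004 over all genes.

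HSD17B10, a mitochondrial SDR of isoleucine and steroid oxidation and a subunit of mitochondrial RNase P, was the SDR of this list that edgeR called higher, in BT549 and MDAMB231. It went from 29.9 CPM ± 3.14 to 64.3 CPM ± 9.03 in BT549 (log2 fold change 1.10, SE 0.13, edgeR adjusted p = 2.74e-05). In MDAMB231 it went from 12.6 CPM ± 1.10 to 36.3 CPM ± 5.36 (1.52, SE 0.13, edgeR adjusted p = 4.17e-07; all SD, n = 3). In HCC1806 it went from 28.6 to 37.0 CPM (0.37, edgeR adjusted p = 0.805). In MDAMB468 it went from 38.8 to 52.7 CPM (0.44, edgeR adjusted p = 0.71), and the replicate block called it higher there. HSD17B10 was thus higher under shADAR1 in every line. It differed least in HCC1806, the line whose DHRS2 rise chose that gene, though whether the lines differ was not tested. RDH11, a retinal reductase, fell in MDAMB231 from 83.2 CPM ± 9.04 to 56.1 CPM ± 7.22 (SD, n = 3; -0.57, SE 0.13, edgeR adjusted p = 0.0165). The RDH11 call was lost from the line's own 6 libraries (adjusted p = 0.0721) and without shADAR1 replicate 1 (0.132), shADAR1 replicate 3 (0.0813) or shNT replicate 2 (0.11), all by edgeR.

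Genes that share substrates with the 10 members without being SDRs were also listed. Of 20 retinoid handling genes 19 were tested, and edgeR called 0 in each line (unadjusted p below 0.05: 1, 1, 2 and 1 in BT549, HCC1806, MDAMB231 and MDAMB468, where 6.42%, 4.35%, 11.7% and 3.76% of all genes lay). DESeq2 called 1 of them, CYP26B1, lower in MDAMB231, where it called 3.68% of all genes. The replicate block called 3, 0, 2 and 1 in the same order of lines, beside 5.14%, 2.1%, 11.4% and 1.66% of all genes. Of 18 carbonyl-reducing and dicarbonyl-clearing enzymes, all tested, edgeR called 0 in each line (unadjusted: 1, 0, 2 and 1). DESeq2 called 1, AKR1B10, lower in MDAMB231, and the block called 0, 0, 3 and 2. In HCC1806, where DHRS2 stood out, neither list thus had a member called by edgeR, DESeq2 or the blocked fit. The HCC1806 medians were -0.10 for the retinoid list and 0.03 for the carbonyl list.

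Of 8 genes reported to regulate or bind DHRS2, MDM2 was the one edgeR called within a line, and DESeq2 also called it in MDAMB468 and HDAC3, lower, in MDAMB231. MDM2 rose in BT549 from 38.8 CPM ± 7.89 to 73.6 CPM ± 2.02 (SD, n = 3; log2 fold change 0.93, SE 0.12, edgeR adjusted p = 0.000209). It rose in MDAMB231 from 66.0 CPM ± 8.36 to 127 CPM ± 17.1 (SD, n = 3; 0.94, SE 0.12, edgeR adjusted p = 4.78e-05). In HCC1806, with the largest DHRS2 difference, MDM2 stood at 72.7 CPM ± 5.25 under shNT and 94.4 CPM ± 6.08 under shADAR1 (SD, n = 3; 0.38, SE 0.12, edgeR adjusted p = 0.684). With the replicate block MDM2 was called there too. The MDM2 difference was smallest in HCC1806, the line whose DHRS2 rise chose that gene, and in MDAMB468 it was 0.56 (SE 0.12). Whether the MDM2 differences differ between lines, or relate to DHRS2, was not tested here.

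Across the 24 libraries, Pearson's r of log2 CPM with DHRS2 was computed for 11000 genes whose mean log2 CPM was 2 or higher. The libraries share lines and hairpins, so the points are not independent and the values are given with no test. The 5 most alike were ENSG00000274760 (0.86), RPP38 (0.84), ENSG00000277967 (0.84), MIDN (0.83) and PLEKHA1 (0.82). In HCC1806 their log2 fold changes were 0.66, 0.20, 0.97, 0.27 and 0.07, none past the threshold (edgeR adjusted p from 0.201 to 1), so none had a difference near the 2.95 of DHRS2. Among the paralogs r ran from -0.61 (DHRS12, lowest in HCC1806) to 0.76 (DHRS9, highest in HCC1806), with 0.30 for DHRS4.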

How the data were processed

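Per the file headers, the deposited files hold a whole-number read count per gene and library, the authors' CPM (count scaled to the library total) and the authors' RPKM (CPM per kilobase of listed length). The submitters' processing notes name bcl2fastq, STAR, Subread, featureCounts and edgeR. Genome build, annotation and strand use are not given in the sources used here. All 24 libraries were kept.

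The filterByExpr function, applied to the 8 groups, kept 21352 genes. Counts were scaled by TMM (factors 0.924 to 1.12) and fitted in 1 model with the 8 groups in edgeR 4.0.16 (R 4.3.3), with 2-sided quasi-likelihood F tests and Benjamini-Hochberg adjustment over all genes tested. Intervals for fold changes are 95%. The steps were tested on simulated data. Deposited RPKM values were used for levels between genes and for no test. Coding sequences and 50-base words came from GENCODE 29, with words matched on either strand, and promoter windows from RefSeq.

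Deviations from group means correlated between same-numbered libraries of the arms at 0.242, 0.332 and 0.443 in HCC1806, at 0.204, 0.348 and 0.149 in MDAMB231 and at 0.139, 0.158 and 0.25 in BT549, which were read as pairs. In MDAMB468 they were 0.165, 0.166 and 0.0651, with no pairing read. The BT549 and MDAMB468 values overlap, so these correlations do not separate BT549 from MDAMB468. The main tests used no pairing in any line, whereas the replicate block, an alternative, used it in every line. The labels do not say what a number marks.

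The members, lists and tests were chosen with earlier results of these data known. Named besides the 10 members were, per list, up to 3 genes called in a line with the smallest p, the 2 nearest tested neighbours on each side, and the 5 genes most alike in r. Some results under this rule are not reported here. Genes named where another tool or the block alone called them, and DHRS4L2, PCNX4 and RN7SKP205, were chosen after their values were seen. Alternatives were DESeq2 1.42.0, upper-quartile and RLE scaling, 2 other filters, the replicate block, only the line's 6 libraries, and leaving out each library.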

Additional observations from a re-analysis of the deposited data

How the results depend on the processing

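The mean DHRS2 difference over BT549, MDAMB231 and MDAMB468 was 0.51 on the log2 scale and missed the threshold (edgeR adjusted p = 0.143). It passed with the replicate block (0.49, adjusted p = 0.0215) and with DESeq2 (0.51, adjusted p = 0.0497), and leaving out each library gave 0.45 to 0.57 (edgeR adjusted p from 0.0559 to 0.259). Within single lines, the block called 1 paralog in BT549 (DHRS9) in place of 0, and changed no other call of a member there or in another line. Over the 36 results of a paralog in a line, 1106 alternative values were computed: 1 passed the threshold, and 33 changed sign while below it. Most of these values left out a library of another line, which by design bears little on that line's fold change. The fit to the 6 HCC1806 libraries alone called 0 of 17657 genes, so it could not show a called paralog. The alternative filters and scalings, and every left-out library, left 0 paralogs called in each line. Without each library in turn, 8 to 9 of the 9 paralogs differed among lines under shNT, with DHRS11 the one that changed. No block could be fitted for lines under shNT, since the numbers are nested in the lines. With 3 libraries per arm, the DHRS2 arms in BT549 and MDAMB231 were apart but unadjusted p was 0.0375 and 0.0241 (edgeR), and DHRS9 outside HCC1806 was limited by depth. The causes of these changes were not tested.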
